A study of Mus musculus with 4 samples.

Results

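The genes described here are 9 genes of lipoprotein lipase and hepatic lipid uptake, out of 46603 gene identifiers in a liver RNA-seq count table. They were chosen by name and by known role, with earlier results of these data already known. They are the lipases Lpl and Lipc, the capillary anchor Gpihbp1 and the secreted inhibitors Angptl4 and Angptl8. The others are the receptors Vldlr and Cd36 and the fatty acid binding proteins Fabp1 and Fabp4. All 9 passed the filter on low counts. Total RNA came from the livers of 4 mice of the C57BL/6 J background that the labels give as male, 2 per group, and all 4 carried floxed alleles of HuR, the RNA-binding protein encoded by Elavl1. The 2 HuR hKO mice received AAV8-TBGP-Cre through the tail vein, in which the thyroxine-binding globulin promoter directs Cre recombinase to hepatocytes, and the 2 control mice received AAV8-TBGP-GFP. Mice of both groups ate a Western diet (42% of kcal from fat, 0.1% cholesterol) and drank sugar water holding 23.1 g/L fructose and 18.9 g/L glucose for 4 weeks. The groups were matched for age, but the labels used here do not state an age. Lpl, Vldlr and Fabp4 were among the genes the study displayed from these same libraries, so their direction here is not independent evidence.

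Lipoprotein lipase hydrolyses the triglycerides of chylomicrons and very low density lipoproteins on the capillary wall, where Gpihbp1 holds it, and angiopoietin-like proteins inhibit it. The adult liver normally makes little Lpl and much hepatic lipase (Lipc), which acts on remnants and high density lipoproteins. Fatty acids and particles released by lipolysis reach hepatocytes through receptors such as Vldlr and the scavenger receptor Cd36, and fatty acid binding proteins carry the acids inside the cell.

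The library totals were 13032095 and 13615761 counts in control mice 1 and 2, and 13806773 and 19715577 in mice 3 and 4 of the group labelled HuR hKO. The targeted gene went against that label. Elavl1 had 377 and 347 counts in the control mice and 541 and 648 counts in the mice labelled HuR hKO, which was 28.3, 25.9, 37.7 and 34.4 CPM (counts per 1000000 counts of the library, scaled by the trimmed mean of M values, TMM). Its log2 fold change was 0.41 (SE 0.135, adjusted p = 0.545, edgeR quasi-likelihood test, Benjamini-Hochberg adjusted). Ccl25 lies across from Elavl1 on the other strand, and the counts per gene do not show which exons the reads covered, so reads of a deleted allele were not separated. Every direction below is therefore between libraries labelled HuR hKO and libraries labelled control.

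HuR binds A- and U-rich stretches of messenger RNA, which are usually counted in the 3′ UTR, so the 3′ UTR letters of the 9 genes were read from the GENCODE M21 annotation of GRCm38. For each gene, only the transcript annotated as principal with the longest 3′ UTR was read, so other transcripts of these genes were not searched. On the transcript strand, the core pentamer ATTTA occurred 5 times in the 2428 bases of the Lpl 3′ UTR, 12 times in the 5091 bases of Vldlr and 6 times in the 1660 bases of Cd36, and once each in Angptl4, Fabp4 and Lipc. It was not found in the short 3′ UTRs read for Angptl8, Gpihbp1 and Fabp1, which are 260, 89 and 69 bases long. The longer nonamer TTATTTATT, which contains ATTTA, occurred once in Lpl and once in Cd36 and in no other of the 9 genes. Of 11874 tested genes with an annotated 3′ UTR, 67.1% held ATTTA and 7.18% held TTATTTATT. Among genes with a 3′ UTR of similar length, ATTTA occurred in 93.5% for Lpl (median 4 sites), 99.8% for Vldlr (median 9) and 87.0% for Cd36 (median 3). In the same length-matched genes, TTATTTATT occurred in 10.9% for the length of Lpl and in 8.16% for that of Cd36. Both nonamer sites are shown because Lpl and Cd36 share the motif and stood at opposite ends of the 9 fold changes given below. The lines give 30 bases 5′ to 3′ of the transcript, with the nonamer in capitals, at chr8:68906671-68906700 on the plus strand for Lpl and chr5:17782313-17782342 on the minus strand for Cd36.
Lpl: agctttcaatTTATTTATTagctgtaaata
Cd36: tcacagtatgTTATTTATTgtattttattt
For comparison, 1 pentamer site of Fabp4 is given from chr3:10204446-10204475 on the minus strand and 1 of Vldlr from chr19:27249810-27249839 on the plus strand, with ATTTA in capitals.
Fabp4: atagtcagtcggATTTAttgttttttttta
Vldlr: aatgtcccaaacATTTAagctagagttagt
A run of 7 T bases (TTTTTTT) occurred 10 times in Cd36, 4 times in Lpl, 4 times in Angptl4, 3 times in Fabp4 and 2 times in Vldlr, counting each start position so that longer runs count more than once, and 41.8% of all such 3′ UTRs had at least 1. Among genes with a 3′ UTR of similar length, such a run occurred in 90.5% for Vldlr (median 8) and 68.5% for Lpl (median 2). The shares were 54.7% for Cd36 (median 1), 54.6% for Angptl4 (median 1) and 19.5% for Fabp4 (median 0). A match of letters does not show that HuR binds there.

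None of the 9 genes passed an adjusted p of 0.05 in edgeR's quasi-likelihood test, against 0.0231% of the 13001 genes tested. At an unadjusted p under 0.05, 3 of the 9 were higher in the libraries labelled HuR hKO (Lpl, Fabp4 and Gpihbp1), beside 4.04% of all genes, and 0 were lower, beside 3.39%. The higher count was 2 in DESeq2's Wald test, which left out Gpihbp1, and 4 in edgeR's exact test, which added Vldlr. By the study's threshold (1.8-fold or more, with p under 0.05 before adjustment), 1 of the 9 was higher, beside 1.21% of all genes, and that gene was Lpl. The levels of the groups did not overlap for 4 genes that were higher (Lpl, Vldlr, Fabp4 and Gpihbp1), beside 19.3% of all genes, and for 1 that was lower (Cd36), beside 18.8%. DESeq2 and edgeR's exact test, which use another estimate of the spread, each placed Lpl alone under an adjusted p of 0.05. The median log2 fold change of the 9 genes was 0.03, and that of all tested genes was 0.0020. With no scaling for library size the median of all genes was 0.31, and Lipc, Cd36 and Fabp1, which were lower after TMM scaling, had log2 fold changes of 0.23, 0.14 and 0.26, each still below that median.

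**Figure D1:**
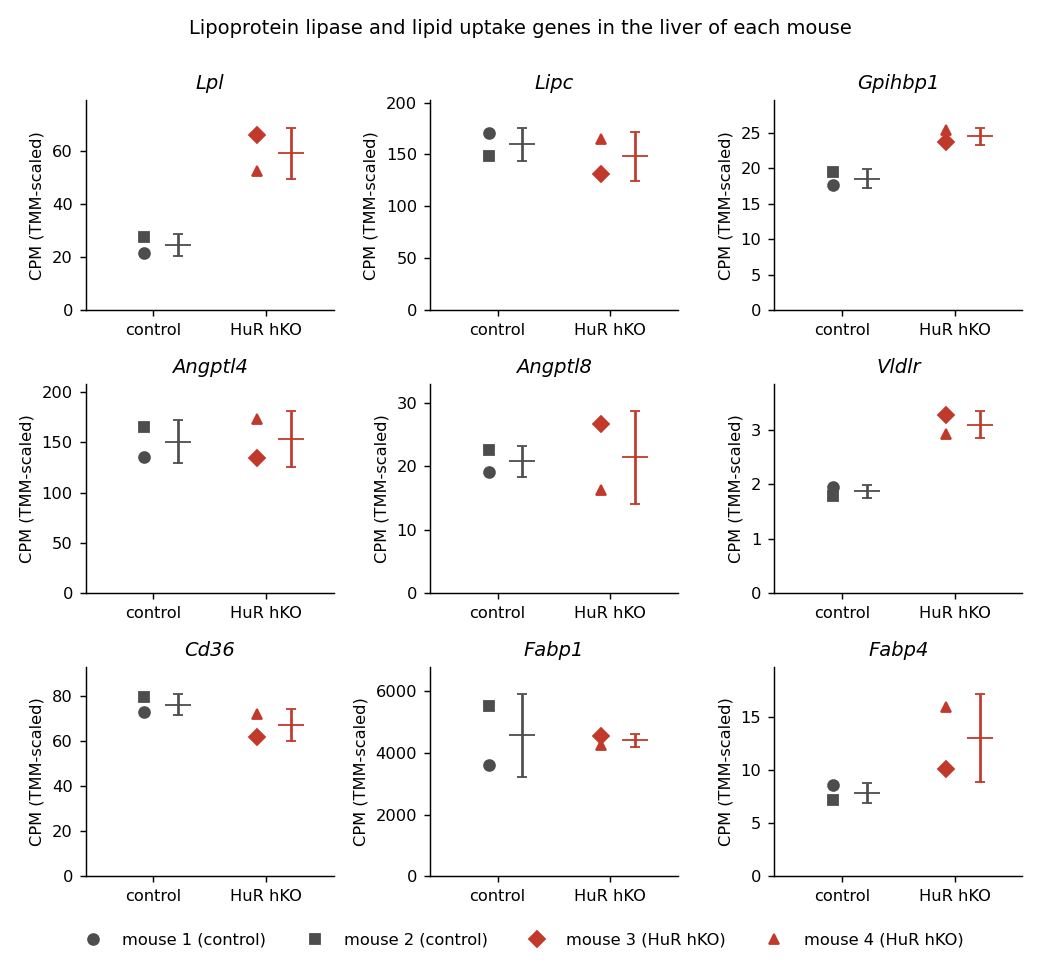
Level of each of the 9 genes in each mouse, in TMM-scaled CPM, with mice 1 and 2 labelled control and mice 3 and 4 labelled HuR hKO. Points are single mice, and bars beside them are the group mean and SD (n = 2). Of the 9 genes, only Lpl, Gpihbp1, Vldlr and Fabp4 had both mice labelled HuR hKO above both control mice.

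Lpl (chr8:68880491-68907448, plus strand) stood furthest apart. It had 287 and 369 counts in control mice 1 and 2 and 947 and 987 counts in mice 3 and 4 labelled HuR hKO. Scaled by TMM, these were 21.6, 27.5, 66.0 and 52.3 CPM, so the lower mouse labelled HuR hKO lay above the higher control mouse. The group means were 24.5 ± 4.20 CPM in controls and 59.2 ± 9.65 CPM in the mice labelled HuR hKO (SD, n = 2 each). The log2 fold change was 1.27 (SE 0.176, 95% interval 0.86 to 1.67), which is a fold of 2.41 (1.82 to 3.19). Its unadjusted p ranked 11 of 13001, and its adjusted p was 0.0920 in edgeR's quasi-likelihood test, above 0.05. The adjusted p of Lpl ranged from 2.37e-06 in edgeR's exact test to 0.325 in edgeR's quasi-likelihood test without mouse 3, and its direction was the same in every setting run. The counting error of each library was smaller than the gap: the 95% Poisson interval reached 30.5 CPM in control mouse 2 and began at 49.1 CPM in mouse 4.

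Lipc, the hepatic lipase (chr9:70798128-70952226, minus strand), had 171 and 148 CPM in the control mice and 131 and 165 CPM in the mice labelled HuR hKO. The groups overlapped, and the log2 fold change was -0.11 (95% interval -0.46 to 0.25, adjusted p = 0.909 in edgeR's quasi-likelihood test). The span of Lipc overlaps other annotated genes on both strands, and whether their exons overlap was not checked.

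Gpihbp1 (chr15:75596628-75599481, plus strand), the endothelial protein that binds Lpl to the capillary wall, had 17.6 and 19.5 CPM in the control mice and 23.6 and 25.3 CPM in the mice labelled HuR hKO. The groups did not overlap, although the step was small. The means were 18.5 ± 1.32 CPM and 24.5 ± 1.22 CPM (SD, n = 2 each), with a log2 fold change of 0.40 (SE 0.141, adjusted p = 0.574, edgeR's quasi-likelihood test). In bulk liver, more cells that make Gpihbp1 and more RNA in each such cell cannot be told apart, and the same holds for every gene here.

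The levels of both inhibitors overlapped between the groups. Angptl4 (chr17:33773750-33781830, minus strand), a target of fatty acid sensing nuclear receptors, had 136 and 166 CPM in the control mice and 134 and 173 CPM in the mice labelled HuR hKO. Each group had a low mouse and a high mouse. Its log2 fold change was 0.03 (95% interval -0.36 to 0.42, adjusted p = 0.982 in edgeR's quasi-likelihood test). Angptl8 (chr9:21835510-21837347, plus strand), which is induced by feeding, had 19.1 and 22.5 CPM in the control mice and 26.6 and 16.2 CPM in the mice labelled HuR hKO. Both control mice lay between the mice labelled HuR hKO, and the log2 fold change was 0.03 (95% interval -0.49 to 0.56). The span of Angptl8 overlaps that of Dock6 on the opposite strand, and whether their exons overlap was not checked.

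The 2 receptors had fitted changes of opposite sign, neither past the test, and the difference between them was not tested. Vldlr (chr19:27216484-27254231, plus strand), the very low density lipoprotein receptor, had the lowest counts of the 9 genes, with 26 and 24 in the control mice and 47 and 55 in the mice labelled HuR hKO. These were 1.95, 1.79, 3.27 and 2.92 CPM. The groups did not overlap in level, but the Poisson intervals of the counts did, reaching 2.86 CPM in control mouse 1 and starting at 2.20 CPM in mouse 4. The log2 fold change was 0.72 (SE 0.318, 95% interval -0.01 to 1.45, adjusted p = 0.670 in edgeR's quasi-likelihood test). Cd36 (chr5:17781690-17888801, minus strand), a fatty acid receptor of several liver cell types, had 73.0 and 79.6 CPM in the control mice and 62.1 and 72.1 CPM in the mice labelled HuR hKO. After TMM scaling both mice labelled HuR hKO lay below both control mice, with 72.1 CPM in mouse 4 next to 73.0 CPM in mouse 1. With no scaling its log2 fold change was 0.14, which was still below the 0.31 of the median gene. Its log2 fold change was -0.18 (95% interval -0.50 to 0.13, adjusted p = 0.812 in edgeR's quasi-likelihood test).

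Fabp1, the main fatty acid binding protein of hepatocytes (chr6:71199827-71205023, plus strand), had 3608 and 5500 CPM in the control mice and 4551 and 4244 CPM in the mice labelled HuR hKO. The control mice spanned the others, and the log2 fold change was -0.05 (95% interval -0.58 to 0.48). Fabp4 (chr3:10204088-10208576, minus strand), the binding protein of adipocytes, capillary endothelium and some macrophages, had 8.57 and 7.23 CPM in the control mice and 10.1 and 16.0 CPM in the mice labelled HuR hKO. Mouse 4 was far above the others, and mouse 3 was only slightly above the higher control mouse. The 95% Poisson interval of the counts reached 10.3 CPM in control mouse 1 and started at 8.53 CPM in mouse 3, so these overlapped. The log2 fold change of Fabp4 was 0.73 (SE 0.245, 95% interval 0.17 to 1.29, adjusted p = 0.555 in edgeR's quasi-likelihood test), and without mouse 4 it was 0.36.

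**Figure D2:**
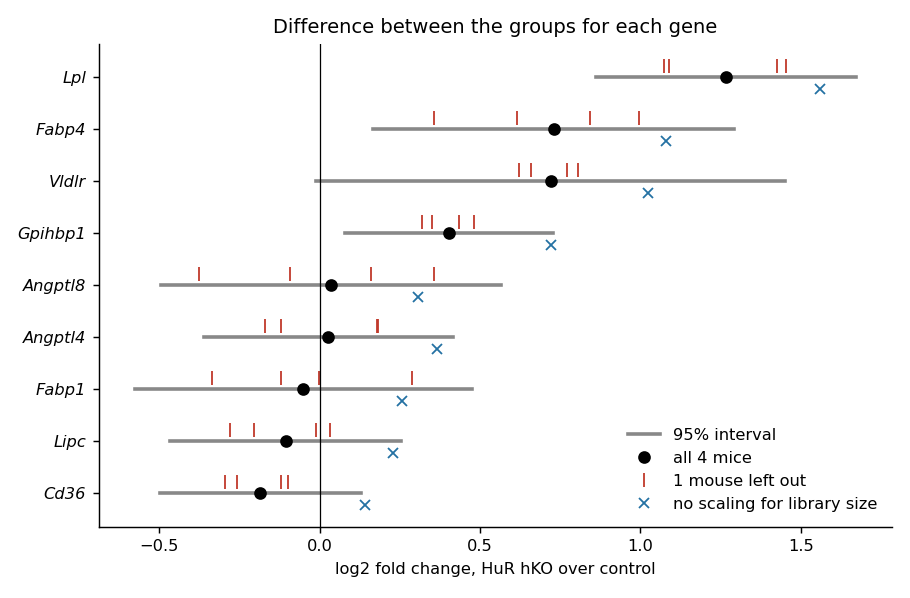
Log2 fold change of each of the 9 genes, libraries labelled HuR hKO over control, with its 95% interval from edgeR's quasi-likelihood fit (grey bar), the values with 1 mouse left out (red ticks) and the value with no scaling for library size (blue cross). The intervals of Lpl, Fabp4 and Gpihbp1 lie above 0, those of the other 6 span it, and the blue crosses lie to the right of the points by about the 0.31 by which the median of all genes shifts.

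Levels between genes were compared per kilobase of annotated exon (union of exons), as the mean CPM per kb of the 4 mice. Fabp1 was highest at 8093 ± 1425 (SD, n = 4), followed by Lipc at 71.6 ± 8.30, Angptl4 at 43.0 ± 5.71 and Angptl8 at 24.4 ± 5.18. Cd36 was at 20.0 ± 2.01, Gpihbp1 at 8.42 ± 1.41, Lpl at 3.99 ± 1.99, Fabp4 at 2.33 ± 0.857 and Vldlr at 0.247 ± 0.0720. In this order, the neighbours Angptl8 and Cd36 overlapped between mice, as did Lpl and Fabp4, although Lpl was above Fabp4 in each mouse, and all other neighbours were separate in all 4 mice. Fabp1 was 113 times the level of Lipc. The order was the same per kb of the longest transcript, although Lpl was then at 10.2 CPM per kb (5.24 to 16.0), which overlapped Gpihbp1 (10.6 to 15.3) and no longer overlapped Fabp4 (up to 3.77).

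**Figure D3:**
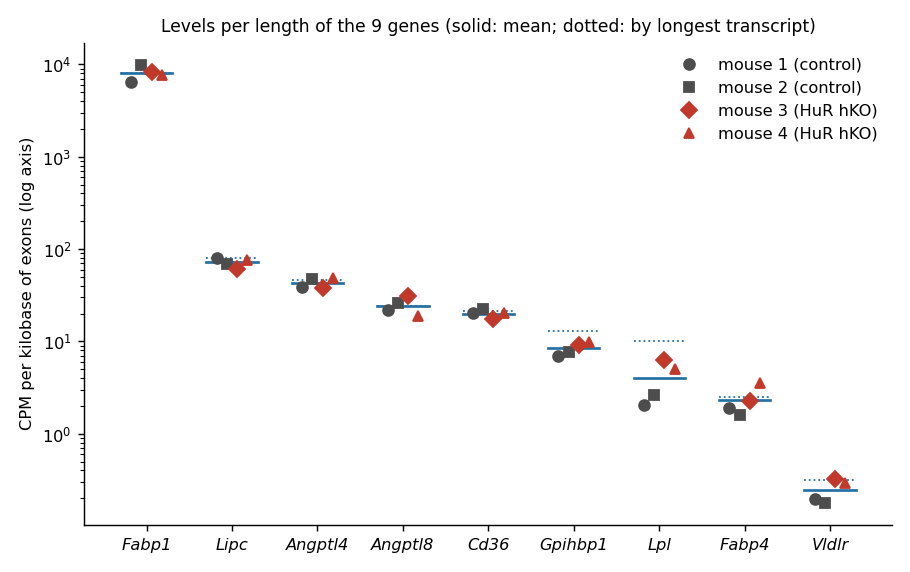
Level of the 9 genes in CPM per kb of exon on a log axis, each point 1 mouse, each solid line the mean of the 4 mice and each dotted line the mean per kb of the longest transcript. Fabp1 lies far above the others at 8093 CPM per kb, and Vldlr lies lowest at 0.247.

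Ratios between genes of the same mouse do not depend on library scaling. The ratio of Angptl4 to Lpl counts was 6.29 and 6.02 in the control mice and 2.03 and 3.31 in the mice labelled HuR hKO. The ratio of Angptl8 to Lpl was 0.885 and 0.819 against 0.404 and 0.310, and that of Gpihbp1 to Lpl was 0.816 and 0.708 against 0.358 and 0.485. Each of these 3 ratios was lower in both mice labelled HuR hKO, with log2 differences of -1.25, -1.27 and -0.87. All 3 have Lpl as the denominator, so they restate the Lpl difference against each partner and are not separate results. With 2 mice per group, the smallest two-sided p of the exact permutation test is 0.33, which each of the 3 ratios gave, and p adjusted over 4 ratios was 0.444. The ratio of Fabp4 to Fabp1 overlapped between the groups, with a log2 difference of 0.71 (exact permutation p = 0.667, adjusted p = 0.667).

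The 5 genes whose levels over the 4 mice followed Lpl most closely were Plcxd1, Mycn, Treh, Alkbh6 and Cyp4f16, among 11149 candidates. Likeness was the largest difference, in any mouse, between the centred log2 CPM of the gene and that of Lpl, and ran from 0.0935 for Plcxd1 to 0.182 for Cyp4f16. Their log2 fold changes were 1.40, 1.22, 1.27, 1.09 and 1.04. These genes were chosen for levels like those of Lpl, so fold changes near its 1.27 follow from the choice. None of the 5 was one of the lipid genes listed next, but those lists hold 104 genes, few beside 11149 candidates.

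Other genes of the same pathways were followed in 7 lists of 104 genes, of which 101 were tested. Of these, 69 had a fitted level above control in the libraries labelled HuR hKO and 32 below, and 0 passed an adjusted p of 0.05 in edgeR's quasi-likelihood test, while 15 were higher and 1 was lower at an unadjusted p under 0.05, beside 4.04% and 3.39% of all genes. The median log2 fold change was 0.13, beside 0.0020 for all genes, of which 50.3% were higher. The lists, like the 9 genes, were chosen with earlier results of these data known.

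Of 15 other genes of lipolysis, 11 were higher and 4 lower (median 0.10, and 0.031 without control mouse 1 or 0.053 without mouse 4), and 2 had an unadjusted p under 0.05. Angptl6, an angiopoietin-like protein, had 14.1 and 15.6 CPM in the control mice and 19.8 and 19.6 CPM in the mice labelled HuR hKO. Apoc2, the obligatory cofactor of Lpl, had 237 and 403 CPM in the control mice and 418 and 683 CPM in the mice labelled HuR hKO. The Apoc2 log2 fold change was 0.78 and its adjusted p was 0.587 in edgeR's quasi-likelihood test. Mouse 4 was the highest for Apoc2, and mouse 3 was barely above control mouse 2.

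Of 16 other lipoprotein receptors and partners, 12 were higher and 4 lower (median 0.15), and 3 had an unadjusted p under 0.05. The median of this list was 0.010 without control mouse 2 and 0.25 without control mouse 1. Lsr, the lipolysis-stimulated lipoprotein receptor, had 130 and 124 CPM in the control mice and 192 and 180 CPM in the mice labelled HuR hKO. In Lsr the mice of each group lay close together and apart from the other group, with a log2 fold change of 0.55 (SE 0.127, adjusted p = 0.305 in edgeR's quasi-likelihood test).

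Fatty acid transport and binding genes split, with 6 of 14 tested higher and 8 lower (median -0.05) and 0 at an unadjusted p under 0.05 in edgeR's quasi-likelihood test. The smallest p in this list belonged to Fabp7, a fatty acid binding protein of the brain, with 2.03 and 1.57 CPM in the control mice and 4.25 and 2.39 CPM in the mice labelled HuR hKO, and to Mfsd2a, a lipid transporter (log2 fold change 0.29). Fabp7 was therefore only slightly higher in mouse 4 than in control mouse 1. The median of this list was -0.15 without control mouse 1 and -0.098 without mouse 4, but 0.065 without control mouse 2 and 0.0032 without mouse 3. The genes linked to Pparg and fat storage split too, with 6 of 11 higher and 5 lower (median 0.01). Their median was -0.18 without control mouse 1 or mouse 3, 0.21 without control mouse 2 and 0.12 without mouse 4. Mogat1, which makes diacylglycerol, had 1.43 and 4.25 CPM in the control mice and 3.90 and 7.32 CPM in the mice labelled HuR hKO, so the groups overlapped, and Gpam, which begins glycerolipid synthesis, had a log2 fold change of 0.35. Of 23 genes linked to Ppara, 15 were higher and 8 lower (median 0.14), and 2 passed the study's threshold, Cyp4a14 (log2 fold change 1.33, adjusted p = 0.352 in edgeR's quasi-likelihood test) and Fgf21 (1.10, adjusted p = 0.574). Cyp4a14, a fatty acid hydroxylase, had 158 and 71.1 CPM in the control mice 254 and 321 CPM in the mice labelled HuR hKO. The smallest p of this list belonged to Vnn1, a pantetheinase, which is named after its values were seen and was lower. Vnn1 had 65.1 and 83.4 CPM in the control mice and 48.1 and 37.9 CPM in the mice labelled HuR hKO, without overlap, and a log2 fold change of -0.79 (SE 0.174, adjusted p = 0.268 in edgeR's quasi-likelihood test). Leaving out control mouse 1 or mouse 4 put the list's median at -0.059, and leaving out control mouse 2 or mouse 3 put it at 0.22 or 0.23. Of 10 genes linked to liver X receptors, 8 were higher and 2 lower (median 0.11, and 0.034 without control mouse 1), with 0 at an unadjusted p under 0.05 in edgeR's quasi-likelihood test. The cholesterol exporters Abcg1 and Abca1 had the smallest p of that list, with log2 fold changes of 0.39 and -0.20.

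The genes linked to insulin, Srebp1c and Chrebp had the highest median of the 7 lists. Of 12 tested, 11 were higher and 1 lower (median 0.46), and 6, all higher, had an unadjusted p under 0.05, beside 4.04% of all genes. Fasn, Elovl6 and Acaca (Acc1), which are among these 6, were displayed by the study from these same libraries. The count is therefore not independent evidence. The median lay between 0.36 and 0.58 with 1 mouse left out. Acly, which makes cytosolic acetyl-CoA, had 153 and 155 CPM in the control mice and 264 and 277 CPM in the mice labelled HuR hKO. Fasn, the fatty acid synthase, had 388 and 352 against 706 and 626 CPM. Their log2 fold changes were 0.81 (adjusted p = 0.103) and 0.85 (adjusted p = 0.137) in edgeR's quasi-likelihood test. Both Acly and Fasn were separated between the groups in all 4 mice.

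**Figure D4:**
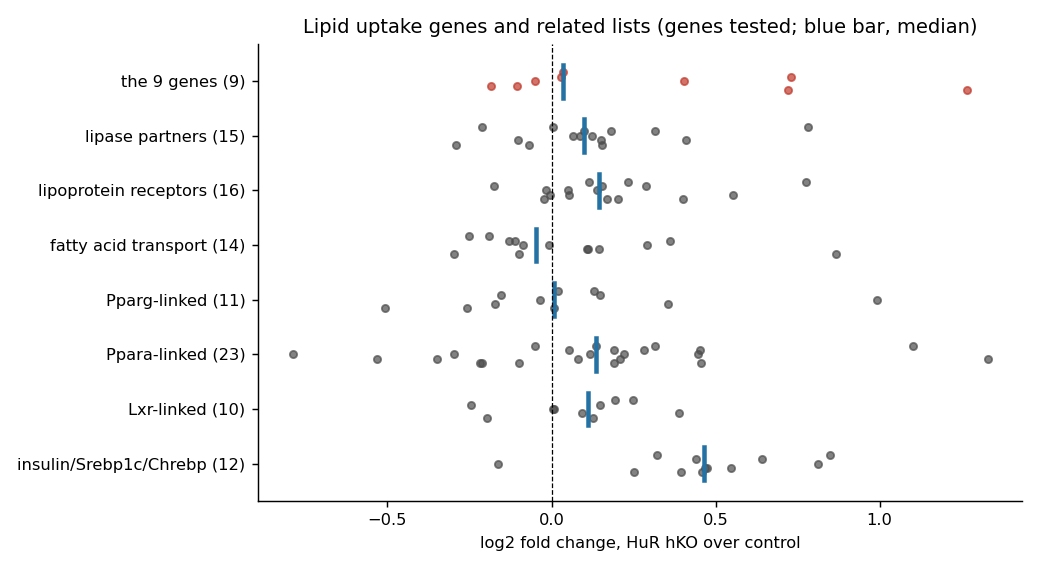
Log2 fold change, libraries labelled HuR hKO over control, of the 9 genes (red) and of the tested genes in each of the 7 lists (grey), with each point 1 gene, each blue bar the median and the number of genes in brackets. The insulin, Srebp1c and Chrebp list has the highest median of the 7 lists, 0.46, and the medians of the fatty acid transport, Pparg and Ppara lists change sign with 1 mouse left out.

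Markers of the cells that a liver sample holds were summed for each mouse. Hepatocyte markers summed to between 71929 and 79527 CPM, with the 2 groups overlapping (median log2 fold change -0.07). The 8 skeletal muscle markers summed to 0.225 to 1.05 CPM, with 4 of them at 0 in every mouse and 0 tested. Adipocyte markers summed to 71.9 to 138 CPM, mostly Cfd, and 3 of 7 were tested. The defining adipocyte genes had few counts, and mouse 4, which had the highest Fabp4, had the highest of them: Adipoq had 3, 1, 0 and 14 counts, Plin1 3, 0, 2 and 9, and Lep 1, 0, 1 and 6 in mice 1 to 4. Their part in the Fabp4 value, or in the Lpl value, of mouse 4 was not tested.

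Lipid-associated and monocyte-derived macrophage markers summed to 48.2 and 37.4 CPM in the control mice and 61.2 and 60.5 CPM in the mice labelled HuR hKO. Spp1 made up most of this sum, with 31.5, 22.3, 34.8 and 41.8 CPM in mice 1 to 4. Of these markers, 6 of 7 tested were higher (median 0.45). The median was 0.21 without mouse 3. It was 0.89 without mouse 4, but there the filter kept 9 markers, so the medians cover different genes. Trem2, a receptor of these macrophages, had 4 and 2 counts in the control mice and 12 and 15 in the mice labelled HuR hKO. Capillary endothelial markers summed to 58.6 and 55.0 against 74.1 and 64.0 CPM, with 5 of 6 tested higher (median 0.24). The median was 0.40 without mouse 4, and 0.16 without control mouse 2, where the filter kept 7 markers. Kupffer cell and macrophage markers summed to 172, 180, 202 and 187 CPM in mice 1 to 4 and stellate markers to 318, 324, 342 and 396 CPM. Of the 9 Kupffer cell and macrophage markers, 6 were higher and 3 lower (median 0.15, and 0.018 to 0.26 leaving out 1 mouse). Of the 8 stellate markers, 7 were higher and 1 lower (median 0.22, and 0.14 to 0.26 leaving out 1 mouse). Sinusoidal endothelial markers summed to 307, 263, 334 and 286 CPM and overlapped between the groups.

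**Figure D5:**
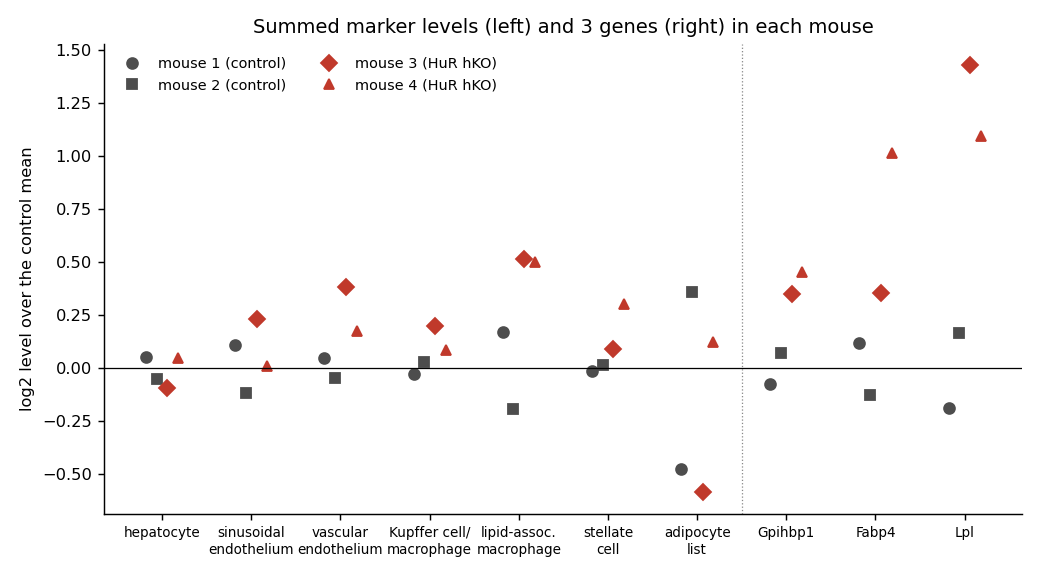
Summed CPM of 7 lists of cell type markers (left) and the CPM of Gpihbp1, Fabp4 and Lpl (right) in each mouse, as the log2 level over the control mean. The lipid-associated macrophage, vascular endothelial, Kupffer cell and stellate cell lists are higher in both mice labelled HuR hKO than in both control mice, as are the 3 genes, and Lpl stands highest; skeletal muscle markers, near 0, are not drawn.

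Divided by the sum of each of these lists in the same mouse, an alternative chosen after seeing the data, Lpl was higher in both mice labelled HuR hKO than in both control mice for all 7 lists used, with log2 differences from 0.75 (lipid-associated macrophages) to 1.44 (adipocytes). The adipocyte sum was mostly Cfd and the lipid-associated macrophage sum mostly Spp1. These ratios therefore say little about scarcer markers such as Adipoq and Trem2, and single markers were not used as the divisor. Gpihbp1 over capillary markers differed by 0.12 and over sinusoidal endothelial markers by 0.28, and the groups overlapped for both. Over lipid-associated macrophage markers, Vldlr differed by 0.21 and Fabp4 by 0.17, and the groups overlapped for Fabp4, as they did over capillary markers (0.41). The values of these markers stand beside those of Lpl, Gpihbp1, Vldlr and Fabp4, and the part of cell type make-up in any of them was not tested.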

How the data were processed

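Whole-liver RNA-seq of 4 mice was used. The deposited values are counts per gene from the authors, whole numbers, which may be rounded estimates because the submitters' processing notes name RSEM and GRCm38 without a role or version. All 4 count columns belonged to a sample, each by a header equal to the sample's description. Genes were kept with edgeR's filter (minimum count 10, minimum total 15), leaving 13001. The libraries held 13032095 to 19715577 counts, and 3 counts, the limit that a count of 0 allows, is 0.152 to 0.230 CPM. Intervals on counts (Poisson, 95%) cover counting error only. Counts were scaled by TMM and compared with edgeR 4.0.16's quasi-likelihood test (R 4.3.3) and Benjamini-Hochberg adjustment. DESeq2 1.42.0, limma-voom 3.58.1, edgeR's exact test, other scalings, other filters and leaving out each mouse were alternatives. Ratios within a mouse used log2 of counts plus 0.5. Python 3.11.15 and GENCODE M21 served the tables and the 3′ UTRs. On simulated data for this comparison, with 12775 to 12806 genes and 5 runs, the test recovered 61.3% of 2-fold and 92.8% of 4-fold changes, with 9.12% false among the called. The simulated counts were drawn from the fitted model and held 494 2-fold and 500 4-fold changes over the 5 runs. The data themselves gave 3 genes at an adjusted p under 0.05, so these rates need not hold for them. The members and gene lists were chosen with earlier results of these data known. From each partner list, the genes past the study's threshold were named or, where fewer than 2 passed, the 2 of smallest p, and from each marker list those past it. Other partner and marker genes were chosen for naming after their values were seen, as Adipoq, Plin1, Lep, Cfd, Spp1 and Vnn1 were. A gene that this rule would name is not reported here.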

Additional observations from a re-analysis of the deposited data

How the results depend on the processing

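Lpl was higher under every alternative run, with log2 fold changes of 1.56 with no scaling for library size, 1.26 with no filter on low counts, 1.26 with DESeq2, 1.27 with edgeR's exact test, and 1.08 to 1.46 leaving out 1 mouse at a time. It passed an adjusted p of 0.05 under those 4 settings and without either control mouse, but not without either mouse labelled HuR hKO. Leaving out a mouse leaves 1 in its group, which is then assumed to vary like the other group, so these fits say little about stability. With no scaling, Lipc was 0.23, Cd36 0.14 and Fabp1 0.26, opposite in sign to the reported values, while the median of all genes was 0.31. Leaving out 1 mouse, Lipc ranged from -0.28 to 0.032, Angptl4 from -0.17 to 0.18, Angptl8 from -0.38 to 0.36 and Fabp1 from -0.34 to 0.29. Angptl8 was -0.019 with limma-voom, and Gpihbp1 was -0.12 over lipid-associated macrophage markers. Per kb of longest transcript, Lipc was 80.2, Gpihbp1 13.0 and Lpl 10.2 CPM.

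Over all genes, 2 were higher at an adjusted p of 0.05, and 4 with library totals, 130 with no scaling, 80 with no filter, 1 with at least 10 counts in every mouse, 50 with DESeq2, 69 with the exact test, 1 with limma-voom, 4 with the robust test and 0 to 32 leaving out 1 mouse (0 without mouse 3, 32 without control mouse 2). Lower genes numbered 1, and 4, 25, 81, 35, 51 and 4 with library totals, no scaling, no filter, DESeq2, exact and robust tests, and 0 to 44 leaving out 1 mouse (0 without mouse 3, 44 without control mouse 2). At the study's threshold the 157 higher were 510 with no scaling, 262 with no filter and 119 to 274 leaving out 1 mouse (274 without control mouse 2), and the 119 lower were 61, 264 and 139 to 232 (232 without control mouse 2). Of partner genes, 2 higher became 10 with no scaling, 4 with no filter, 1 with DESeq2 and 3 to 12 leaving out 1 mouse (12 without control mouse 2), and 0 lower became 0 to 3 (3 without control mouse 1). Of marker genes, 1 higher became 5 with no scaling, 0 with 10 counts in every mouse and 0 with DESeq2, and 0 lower became 1 with no filter and 0 to 1 leaving out 1 mouse. Of the 9 genes, 1 higher became 3 with no scaling and 1 to 2 leaving out 1 mouse (2 without mouse 3). Median log2 fold changes with no scaling were 0.44 for partner genes and 0.44 for marker genes, and that of partner genes was 0.083 to 0.15 leaving out 1 mouse. The causes were not tested. No paired analysis was possible because the groups share no replicate numbers. With 2 mice a group, a change of the size of Vldlr or Gpihbp1 was not resolved.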
